A study of Mus musculus with 27 samples.

Results

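The SLC25 genes encode the mitochondrial carrier family, the largest family of solute transporters of the mitochondrion, and 43 of them were followed in mature 3T3-L1 adipocytes exposed to rosiglitazone. The 43 members are the genes whose symbol is Slc25a followed by a number and for which a probe set names that gene alone, out of 18781 genes measured. Slc25a1, Slc25a17 and Slc25a20 were left out of the family by the selection rule, and a probe set that names both Slc25a32 and Dcaf13 was not used. Where a gene had several probe sets, as 4 members did, the set with the highest mean was taken.

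3T3-L1 is a mouse preadipocyte line that is turned into fat cells in culture with dexamethasone, insulin and 3-isobutyl-1-methylxanthine. The 27 arrays, of the type Affymetrix Mouse Gene 1.1 ST, formed 9 groups of 3: untreated mature adipocytes at time 0, and mature adipocytes given 1 µM rosiglitazone in DMSO for 30 min, for 1, 2, 6 or 12 h, or for 24, 36 or 48 h. Rosiglitazone, an antidiabetic drug, is a ligand of PPARγ, the master regulator of the fat cell programme. The untreated cells at time 0 were the only control used here, so drug, solvent, handling and time in culture cannot be told apart.

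Mitochondrial carriers sit in the inner membrane, which is otherwise closed to most metabolites, and each moves a narrow set of compounds: adenine nucleotides, phosphate, amino acids, dicarboxylates, vitamins, coenzymes or iron. They are made in the cytosol and imported into the inner membrane by the TOM and TIM22 machinery. In fat cells they link the matrix to the cytosolic steps of lipogenesis, glyceroneogenesis and amino acid breakdown.

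The values are log2 intensities, so a difference of 1 is a 2-fold difference, and array medians lay between 4.02 and 4.13. Changes are differences of group means in log2 units ± SE, with 3 arrays per group and p-values from limma with Benjamini-Hochberg adjustment over all 18781 genes. A member is said to have risen or fallen where the adjusted p was below 0.05. No label states that replicates came from separate cultures, so the p-values reflect only array-to-array spread, possibly technical. As bulk RNA was measured, fewer cells of a type and less RNA per cell cannot be told apart. Angptl4 and Pdk4, known PPAR targets used here as a check of the treatment, were higher by 1.11 ± 0.073 (2 h, adjusted p = 2.81e-10) and by 2.05 ± 0.11 (48 h, adjusted p = 4.89e-13), respectively. The fat cell markers were all bright: the means of the 8 measured ranged from 9.73 for Cebpa to 11.91 for Adipoq in untreated cells.

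The promoter windows of 3 members are shown because their RNAs made the changes of 2-fold or more: Slc25a25, high within the first hours, Slc25a34, high from 6 h on, and Slc25a45, low at the late times. Each window is the 250 bases before the gene's start in RefSeq on GRCm38.p6, written 5′ to 3′ on the gene's strand. Capitals mark TGACGTCA, the cyclic AMP response element, in Slc25a25 (chr2:32424067-32424316, minus strand). They mark the nuclear receptor core site AGGTCA in Slc25a45 (chr19:5877572-5877821, plus strand), and its reverse complement in Slc25a34 (chr4:141623835-141624084, minus strand).
Slc25a25: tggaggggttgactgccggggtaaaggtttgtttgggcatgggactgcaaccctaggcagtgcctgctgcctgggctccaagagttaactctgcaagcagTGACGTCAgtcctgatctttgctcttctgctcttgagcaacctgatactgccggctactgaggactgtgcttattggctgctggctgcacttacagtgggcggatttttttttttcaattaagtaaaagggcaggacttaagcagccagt
Slc25a34: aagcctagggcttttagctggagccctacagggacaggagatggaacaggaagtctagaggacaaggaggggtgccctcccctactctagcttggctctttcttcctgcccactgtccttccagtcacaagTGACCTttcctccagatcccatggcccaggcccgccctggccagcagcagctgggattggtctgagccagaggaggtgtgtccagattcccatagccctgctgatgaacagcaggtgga
Slc25a45: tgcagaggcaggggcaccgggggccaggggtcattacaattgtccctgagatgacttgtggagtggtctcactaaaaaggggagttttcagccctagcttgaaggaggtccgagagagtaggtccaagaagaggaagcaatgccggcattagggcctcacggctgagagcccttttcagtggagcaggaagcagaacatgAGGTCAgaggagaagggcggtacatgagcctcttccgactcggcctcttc

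The 8 marked letters of Slc25a25 lie 150 to 143 bases before its start, in 1 of the 3 windows listed for that gene. The marked letters lie 119 to 114 bases before the start of Slc25a34 and 50 to 45 bases before that of Slc25a45. Windows were listed for 33 of the 43 members, 43 windows in all, and both strands were searched. TGACGTCA, which is its own reverse complement, was found in 2 of the 43 member windows (Slc25a25 and Slc25a36) and in 1.55% of all 32851 windows. AGGTCA was found in 4 of the 43 member windows (Slc25a34, Slc25a39, Slc25a45 and Slc25a47) and in 14.0% of all windows. The DR1 repeat, which is AGGTCA followed by any 1 base and AGGTCA again, is the element that PPARγ binds with its partner RXR. It contains the core site, and it was found in 0 member windows and in 0.0335% of all windows. These matches describe letters and not binding.

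Over the whole course, by limma's moderated F-test against untreated cells, 23 of 43 members changed (53.5%), against 40.5% of all genes. Bright probe sets are called more often, and 30 members had a mean over the 27 arrays above 4.76, the median over genes. Of these 30, 22 changed (73.3%), against 66.1% of all genes above that mean, and of the 13 dimmer members Slc25a29 alone changed (7.69%, against 15.0%). These shares lie near those of all genes in the same range of brightness.

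**Figure D1:**
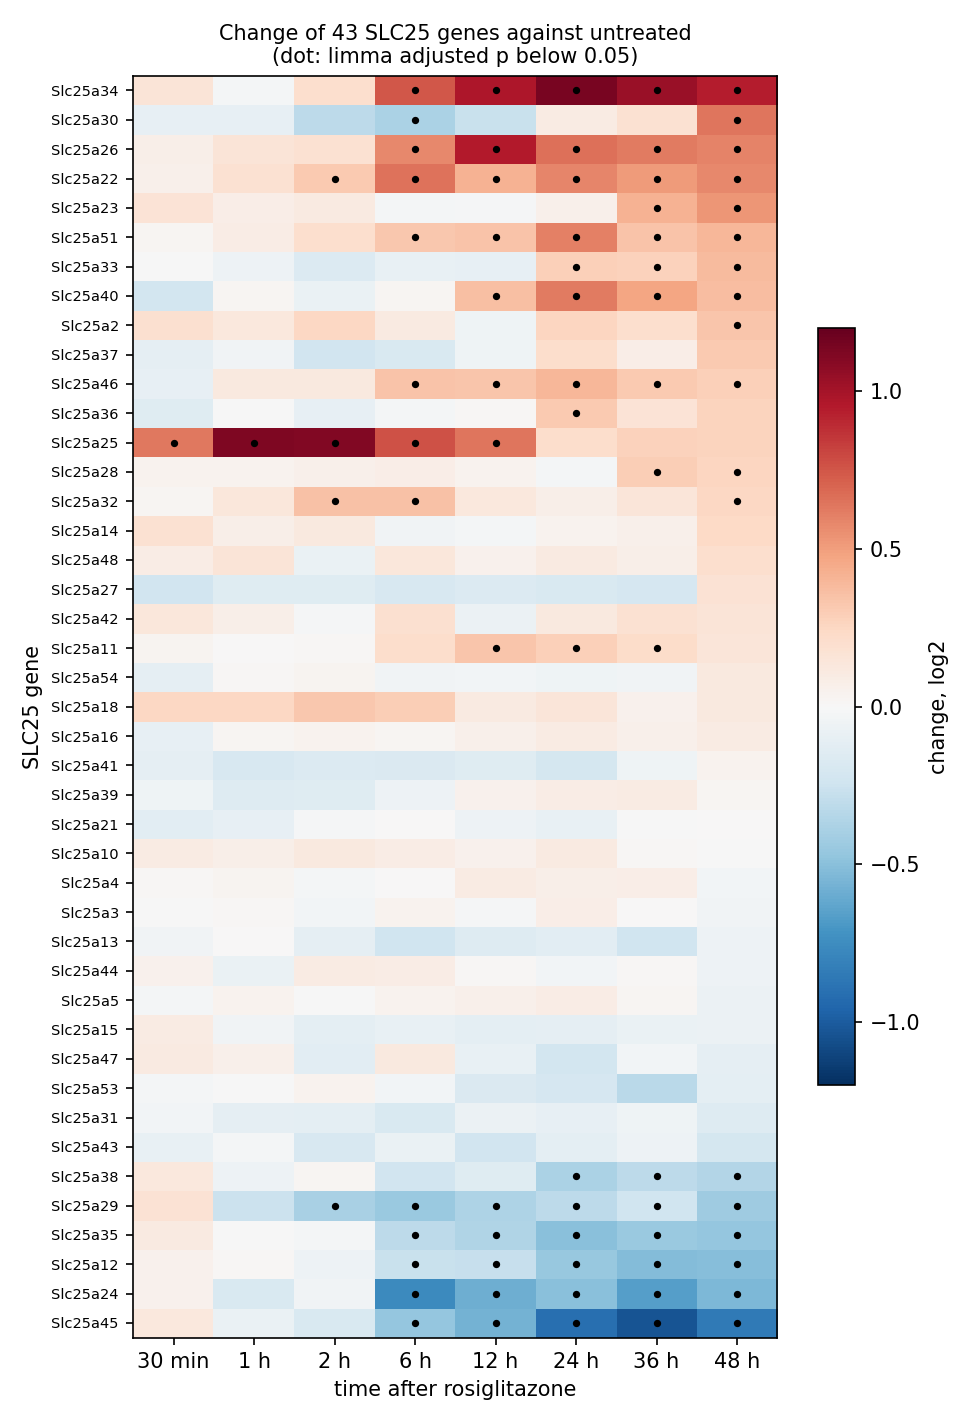
Difference from the untreated mean, in log2 units, for the 43 SLC25 members (rows) at 8 times after rosiglitazone (columns), with called differences marked. Rows are ordered by the change at 48 h, from highest to lowest. Slc25a25 was the member called at 30 min, and Slc25a26, Slc25a34, Slc25a24, Slc25a35 and Slc25a45 were called at every time from 6 h to 48 h.

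Against untreated cells, Slc25a25 rose at 30 min, when 0.0479% of all genes were called, all of them higher. It was also the member called at 1 h, when 0.99% of all genes were called (0.474% higher, 0.516% lower). No member fell at these times (0.0% of all genes lower at 30 min), with 1 lower at an unadjusted p below 0.05 at 30 min and 3 at 1 h. Members called at 2 h were 3 higher and 1 lower, where 5.91% of all genes were called (3.04% higher, 2.87% lower). Those at 6 h were 7 higher and 6 lower, against 16.6% of all genes (8.39% and 8.18%), and those at 12 h were 8 higher and 5 lower, against 18.9% (9.48% and 9.38%). The later counts were 9 higher and 6 lower at 24 h, against 20.7% of all genes (10.1% and 10.5%), and 10 higher and 6 lower at 36 h, against 21.4% (10.9% and 10.5%). The last was 12 higher and 6 lower at 48 h, against 24.0% of all genes (12.6% and 11.4%). The shares of all genes given here and below were not matched for brightness, and bright probe sets are called more often. The median change of the members at 48 h was 0.12, and that of all genes was 0.013. With each array centred on its own median, 15 members were higher and 6 lower at 48 h, and 11 and 4 at 6 h, while over all genes the share of calls that were higher became 65.9% instead of 52.5% (48 h) and 76.5% instead of 50.6% (6 h). Centred arrays gave 8 higher and 4 lower members at 12 h, 13 and 6 at 24 h, and 14 and 4 at 36 h, where the shares of higher calls over all genes were 68.2%, 70.4% and 72.6% instead of 50.3%, 49.0% and 50.8%. The 4 calls at 2 h came to 2 without untreated replicate 3.

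**Figure D2:**
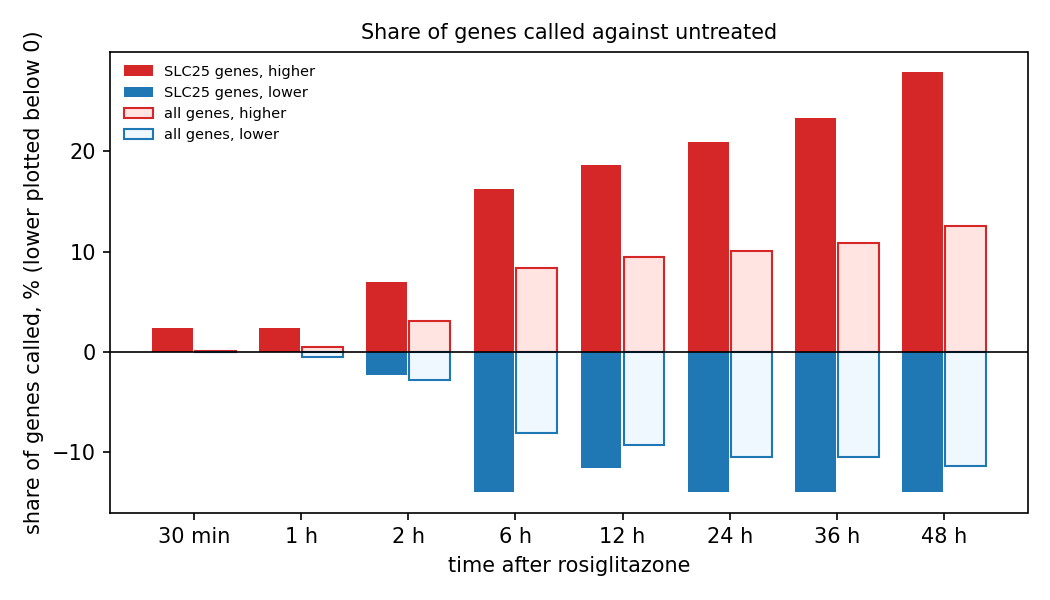
Percent of genes called higher or lower at each time against untreated cells, for the SLC25 members and for all 18781 genes. Both rise with time, from 1 member at 30 min to 18 of 43 members at 48 h, where 24.0% of all genes were called.

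Altogether 21 of 43 members were called at 1 time or more against untreated cells, as were 39.9% of all genes. Of the 21, 14 were higher alone (19.8% of all genes), 6 lower alone (18.8%) and 1, Slc25a30, lower at 6 h and higher at 48 h (1.34%). At every time from 6 h to 48 h 10 members were called, as were 6.8% of all genes: Slc25a22, Slc25a26, Slc25a34, Slc25a46 and Slc25a51 rose, and Slc25a12, Slc25a24, Slc25a29, Slc25a35 and Slc25a45 fell. More members were first called at 6 h, 9 of them, than at any other time, and 12.8% of all genes were first called then. Slc25a37, Slc25a39 and Slc25a42 changed over the course without a call at any single time. Slc25a27, Slc25a47 and Slc25a48, all among the 13 dimmer members, were called between treated times alone. Called nowhere were 16 members, as were 51.6% of all genes.

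The calcium-regulated ATP-Mg/phosphate carriers load the matrix with adenine nucleotides when cytosolic calcium rises. Their members moved at different times and in different directions. Slc25a25 read 6.08, 6.30 and 6.47 on the untreated arrays, 6.94, 6.80 and 7.01 at 30 min, 7.26, 7.53 and 7.42 at 1 h, and 7.27, 7.48 and 7.44 at 2 h. Every array from 30 min to 24 h lay above all untreated ones. The groups overlapped again at 36 h and at 48 h, with 6.82, 6.43 and 6.40 at 48 h. The change was 0.63 ± 0.11 at 30 min (adjusted p = 0.0126), 1.12 ± 0.11 or 2.18-fold at 1 h (adjusted p = 4.8e-07), then 1.11 ± 0.11 at 2 h (adjusted p = 1.77e-07). It then fell back, to 0.76 at 6 h (adjusted p = 1.84e-05), to 0.64 after 12 h (adjusted p = 0.000118), and to 0.26 after 48 h (95% interval 0.04 to 0.49, adjusted p = 0.0839). Its fall of -0.85 from 2 h to 48 h passed the test itself (adjusted p = 1.8e-06). The call at 30 min ended without untreated replicate 1 or 2, or without 30 min replicate 1 or 3, with adjusted p from 0.0661 to 0.255. Against the 30 min arrays in place of the untreated ones, the 1 h change was 0.49 (adjusted p = 0.0339), and the calls at 6 h and 12 h ended (0.13 and 0.0082, adjusted p = 0.499 and 0.974).

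Slc25a24, a close relative of Slc25a25 that carries the same substrates, went the other way. It read 6.39, 6.28 and 6.31 untreated and 5.54, 5.72 and 5.44 at 6 h, without overlap. It changed by -0.76 ± 0.081 at 6 h (adjusted p = 3.56e-07), then by -0.54 ± 0.081 at 48 h (adjusted p = 1.33e-05), and was called at each time between. At 2 h its change was -0.04. Slc25a23, the third paralog of this set, was not called up to 24 h and then rose. Its untreated values were 5.06, 5.38 and 5.31, and those at 48 h were 5.69, 5.80 and 5.84, all above the untreated ones. The change was 0.42 ± 0.11 at 36 h (adjusted p = 0.00477), then 0.53 ± 0.11 at 48 h (adjusted p = 0.000484). Slc25a41, a relative without the calcium-binding domain, was dim (mean 3.16) and not called (0.05 at 48 h, 95% interval -0.15 to 0.24).

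**Figure D3:**
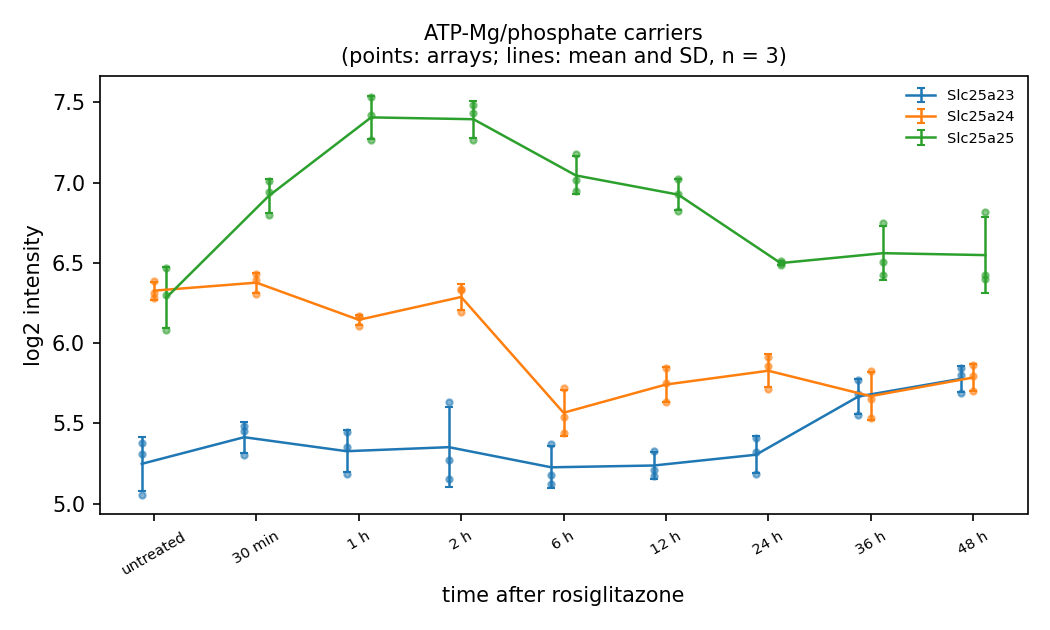
Log2 intensity of Slc25a23, Slc25a24 and Slc25a25 by time after rosiglitazone, with a point per array and lines through the group means (bars, SD, n = 3). Slc25a25 peaks at 1 h and 2 h, Slc25a24 steps down between 2 h and 6 h, and Slc25a23 rises after 24 h; brightness is not comparable between probe sets.

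The ADP/ATP carriers exchange matrix ATP for cytosolic ADP, and the phosphate carrier brings in the phosphate for ATP synthesis. None of these 4 members was called at any time, with 1 at an unadjusted p below 0.05 at 6 h. Slc25a4 and Slc25a5, the muscle-type and the widespread ADP/ATP carrier, differed at 48 h from untreated cells by -0.03 (95% interval -0.13 to 0.08) and -0.07 (95% interval -0.19 to 0.05). The phosphate carrier Slc25a3 differed by -0.04 (95% interval -0.16 to 0.08). For these 3 carriers the arrays of 48 h overlapped the untreated ones. Slc25a31, the testis ADP/ATP carrier, had the lowest mean of the family, 2.36, and its change was -0.15 (adjusted p = 0.154). Probes of Slc25a4 and Slc25a5 may read each other's RNA or that of related copies, and the 3 probe sets of Slc25a5 moved alike, by -0.07, -0.07 and -0.11 at 48 h.

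Among the carriers of nucleotides, coenzymes and vitamins, 4 of 7 members rose at 24 h (10.1% of all genes) and 4 of 7 at 48 h (12.6%), and none fell (10.5% and 11.4%). Slc25a26 imports S-adenosylmethionine, the methyl donor for mitochondrial RNA, proteins and ubiquinone synthesis. Its values were 7.42, 7.23 and 7.29 in untreated cells, 7.81, 7.89 and 7.97 at 6 h, 8.13, 8.38 and 8.28 at 12 h, and 7.98, 7.90 and 7.84 at 48 h. From 1 h on the groups did not overlap the untreated one, the first call was at 6 h, and 12 h was the highest. The change was 0.95 ± 0.066 at 12 h (adjusted p = 3.18e-10), then 0.59 ± 0.066 at 48 h (adjusted p = 2.04e-07).

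Slc25a51, the importer of NAD+, read 9.41, 9.69 and 9.60 untreated and 10.23, 10.15 and 10.12 at 24 h. That change was 0.60 ± 0.090 (adjusted p = 1.51e-05), followed by 0.40 at 48 h (adjusted p = 0.00142). Its smaller changes at 6 h, 12 h and 36 h lost their calls without untreated replicate 1 (highest adjusted p 0.105, 0.0738 and 0.0598 over single arrays left out). Slc25a33, a pyrimidine nucleotide carrier linked to mitochondrial DNA upkeep, was a late member. It read 6.76, 6.81 and 6.76 untreated, and 7.09, 7.16 and 7.20 at 48 h, a change of 0.38 ± 0.079 (adjusted p = 0.000811). At 2 h its values of 6.63, 6.69 and 6.52 were below all untreated arrays, and the rise from 2 h to 48 h was 0.54 ± 0.079 (adjusted p = 1.09e-05). Its calls at 24 h and 36 h ended without replicate 3 of the time in question (adjusted p = 0.0802 and 0.108).

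Slc25a32, the folate and flavin carrier, rose early and again at the end: 0.36 at 2 h (adjusted p = 0.0114), 0.35 at 6 h (adjusted p = 0.00543), then 0.25 at 48 h (adjusted p = 0.0329). The call at 2 h ended without 2 h replicate 2 or untreated replicate 2 or 3 (highest adjusted p 0.0718), and that at 48 h without 48 h replicate 2 or 3 or untreated replicate 2 or 3 (highest adjusted p 0.128). Slc25a36, the other pyrimidine nucleotide carrier, was called at 24 h alone (0.31, adjusted p = 0.0449), and the call ended without 24 h replicate 1 or 2 or any 1 untreated array (adjusted p from 0.0618 to 0.184). Its second probe set moved alike, by 0.33 at 24 h and 0.38 at 48 h, but with the mean of both sets the 24 h change of 0.32 was not called (adjusted p = 0.0707). Slc25a42, which imports coenzyme A, changed over the course (F-test adjusted p = 0.0324), and its difference at 48 h was 0.16 (95% interval 0.00 to 0.31, adjusted p = 0.137). Slc25a16, a carrier linked to coenzyme A, was not called (0.10 at 48 h).

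The aspartate and glutamate carriers supply the malate-aspartate shuttle and bring glutamate into the matrix, and 1 of the 4 fell and 1 rose at each time from 6 h on, when 16.6% to 24.0% of all genes were called. Slc25a12, the calcium-regulated aspartate/glutamate exchanger also called aralar, read 8.98, 9.13 and 9.02 untreated and 8.42, 8.58 and 8.61 at 48 h. It changed by -0.52 at 36 h (adjusted p = 1.65e-05), then by -0.51 ± 0.078 at 48 h (adjusted p = 2.04e-05), without overlap between groups. Its smaller decreases at 6 h and 12 h (-0.27 and -0.28, adjusted p = 0.0191 and 0.0124) lost their calls without untreated replicate 2, and that at 6 h also without 6 h replicate 3 (highest adjusted p 0.122 and 0.074). They also ended with each array centred on its median. Slc25a13, the paralog citrin, was not called (-0.06 at 48 h, 95% interval -0.24 to 0.12). Its mean was 4.79, near the median over genes, against 8.82 for Slc25a12, so the probe sets may not show a fall equally well.

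Slc25a22, the main glutamate carrier, rose within 6 h and stayed high. The untreated arrays read 8.20, 8.41 and 8.12, those at 6 h 8.94, 8.96 and 8.78, and those at 48 h 8.70, 8.89 and 8.89. The change was 0.65 ± 0.082 at 6 h (adjusted p = 2.85e-06), then 0.58 ± 0.082 at 48 h (adjusted p = 5.74e-06). A first change at 2 h, 0.31 (adjusted p = 0.0198), was lost without untreated replicate 1 or 3 or 2 h replicate 1 or 3 (adjusted p from 0.0542 to 0.137). The second glutamate carrier, Slc25a18, was dim (mean 3.65) and not called (0.12 at 48 h, 95% interval -0.10 to 0.34).

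Of the 8 carriers of other amino acids and glutathione, 2 rose and 3 fell at 48 h, where 12.6% of all genes rose and 11.4% fell. Slc25a45, a member of this branch whose substrate is less well established, had the largest decrease of the family. Its untreated values were 6.45, 6.62 and 6.62, those at 36 h 5.92, 5.30 and 5.37, and those at 48 h 5.69, 5.70 and 5.77. It changed by -1.03 ± 0.11 at 36 h (adjusted p = 9.24e-08), the one decrease of 2-fold or more, and by -0.84 ± 0.11 at 48 h (adjusted p = 1.72e-06). Its decline went on after 6 h, with -0.44 from 6 h to 24 h (adjusted p = 0.00759). Slc25a40, an importer of glutathione, read 6.90, 6.94 and 6.77 untreated and 7.59, 7.52 and 7.37 at 24 h, where its change of 0.62 ± 0.094 was at its highest (adjusted p = 1.86e-05). At 48 h it was 0.37 (adjusted p = 0.00493), and this call ended without 48 h replicate 2 (0.28, adjusted p = 0.0519). The second probe set of Slc25a40 moved alike, by 0.48 at 24 h and 0.41 at 48 h.

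Slc25a39, the other glutathione importer, changed over the course (F-test adjusted p = 0.0219) but at 48 h differed by 0.03 (95% interval -0.12 to 0.17). Slc25a29, a carrier of basic amino acids, was among the early decreases: its values went from 4.96, 4.85 and 5.08 untreated to 4.55, 4.69 and 4.49 at 2 h and 4.40, 4.61 and 4.60 at 48 h. It changed by -0.39 ± 0.075 at 2 h (adjusted p = 0.00129), then -0.43 ± 0.075 at 48 h (adjusted p = 0.000109), without overlap, although the probe set is a dim one. Its smaller change at 36 h (-0.24, adjusted p = 0.021) was lost without untreated replicate 1 or 3 or 36 h replicate 1 or 3 (highest adjusted p 0.131). Slc25a38, the glycine carrier needed for haem synthesis, fell by 0.38 at 24 h (SE 0.093, adjusted p = 0.00343), then by 0.35 at 48 h (adjusted p = 0.00684). At 36 h its change of -0.32 (adjusted p = 0.0147) lost its call without untreated replicate 2 or 36 h replicate 2 (highest adjusted p 0.127).

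Slc25a2, an ornithine carrier with a dim probe set (mean 4.01), was called at 48 h alone (0.33 ± 0.11, adjusted p = 0.0342). The call ended without 48 h replicate 1 or 3 or untreated replicate 2 or 3 (adjusted p from 0.0924 to 0.155). Slc25a44, the branched-chain amino acid carrier known from brown fat, was not called at any time and differed by -0.06 at 48 h (95% interval -0.26 to 0.13). Slc25a15, the main ornithine carrier, was not called either (-0.07 at 48 h).

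The dicarboxylate and oxoacid carriers exchange malate, succinate and 2-oxoglutarate across the membrane. Slc25a11, the oxoglutarate/malate carrier of the malate-aspartate shuttle, rose by 0.33 ± 0.076 at 12 h (adjusted p = 0.00218), then 0.28 at 24 h (adjusted p = 0.00742), and at 48 h its difference was 0.15 (95% interval -0.01 to 0.30, adjusted p = 0.179). The call at 24 h ended without untreated replicate 3 (adjusted p = 0.0508). A call at 36 h (0.22, adjusted p = 0.0344) ended without 36 h replicate 1 or 3 or untreated replicate 2 or 3 (highest adjusted p 0.178). Slc25a10, the dicarboxylate carrier, was bright in every group with a mean of 11.49, and at 48 h it differed from untreated cells by -0.01 (95% interval -0.11 to 0.10). Slc25a21, which carries oxodicarboxylates, was dim (mean 2.65) and not called.

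Both iron importers, the mitoferrins, changed over the course, as 40.5% of all genes did. Slc25a28 was higher by 0.29 ± 0.076 at 36 h (adjusted p = 0.00607), then by 0.26 at 48 h (adjusted p = 0.0151), the latter call ending without 48 h replicate 2 or 3 (highest adjusted p 0.0853). Slc25a37 read 6.32, 6.48 and 6.47 at 2 h and 6.68, 7.23 and 6.97 at 48 h, a rise of 0.54 ± 0.12 (adjusted p = 0.000866) without overlap. Against the untreated arrays (6.77, 6.69 and 6.49) the 48 h difference was 0.31 and not called (adjusted p = 0.0507).

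Of the relatives of uncoupling proteins, Slc25a30 was the one member that reversed. It read 7.04, 6.88 and 6.92 untreated, 6.78, 6.60 and 6.33 at 6 h, and 7.33, 7.72 and 7.73 at 48 h. The first values lie below and the last above all untreated arrays. It changed by -0.38 ± 0.12 at 6 h (adjusted p = 0.0266), higher by 0.65 ± 0.12 at 48 h (adjusted p = 0.000179), and 0.96 ± 0.12 higher at 48 h than at 2 h (adjusted p = 9.16e-07). The early decrease was lost without untreated replicate 1 or 3 or 6 h replicate 2 or 3 (highest adjusted p 0.195), and with each array centred on its median. Slc25a14 and Slc25a27, both dim, were not called against untreated cells (0.24 and 0.17 at 48 h).

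The remaining 8 members have a role at the outer membrane or a little known substrate, and they include the member with the largest sustained rise. Slc25a34 and Slc25a35 are close relatives whose substrates are not settled. Slc25a34 read 6.98, 7.32 and 7.33 untreated, 8.04, 7.98 and 7.84 at 6 h, 8.46, 8.34 and 8.26 at 24 h, and 8.33, 8.15 and 7.99 at 48 h. No array from 6 h on reached down to the untreated ones. The change was 0.74 ± 0.11 at 6 h (adjusted p = 1.82e-05), 1.14 ± 0.11 or 2.21-fold at 24 h (adjusted p = 1.4e-08), then 0.94 ± 0.11 at 48 h (adjusted p = 2.46e-07). Slc25a35 took the opposite course, with 7.89, 7.94 and 8.04 untreated, 7.52, 7.39 and 7.45 at 24 h and 7.41, 7.52 and 7.54 at 48 h. It changed by -0.50 ± 0.068 at 24 h (adjusted p = 4.45e-06), then by -0.47 ± 0.068 at 48 h (adjusted p = 9.95e-06), without overlap.

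Slc25a46, an outer membrane protein that acts in mitochondrial dynamics, was higher by 0.39 ± 0.10 at 24 h (adjusted p = 0.0073). Its calls at 6 h, 12 h, 36 h and 48 h each ended without untreated replicate 2 or 3 and without either of 2 arrays of the time itself (highest adjusted p 0.242). Its other, dim probe set (mean 4.80) differed by -0.03 at 24 h and -0.10 at 48 h, so its 2 probe sets did not move alike. With the mean of both, the difference at 24 h was 0.18 and not called (adjusted p = 0.119). Slc25a43, Slc25a47, Slc25a48, Slc25a53 and Slc25a54 were dim and not called against untreated cells.

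**Figure D4:**
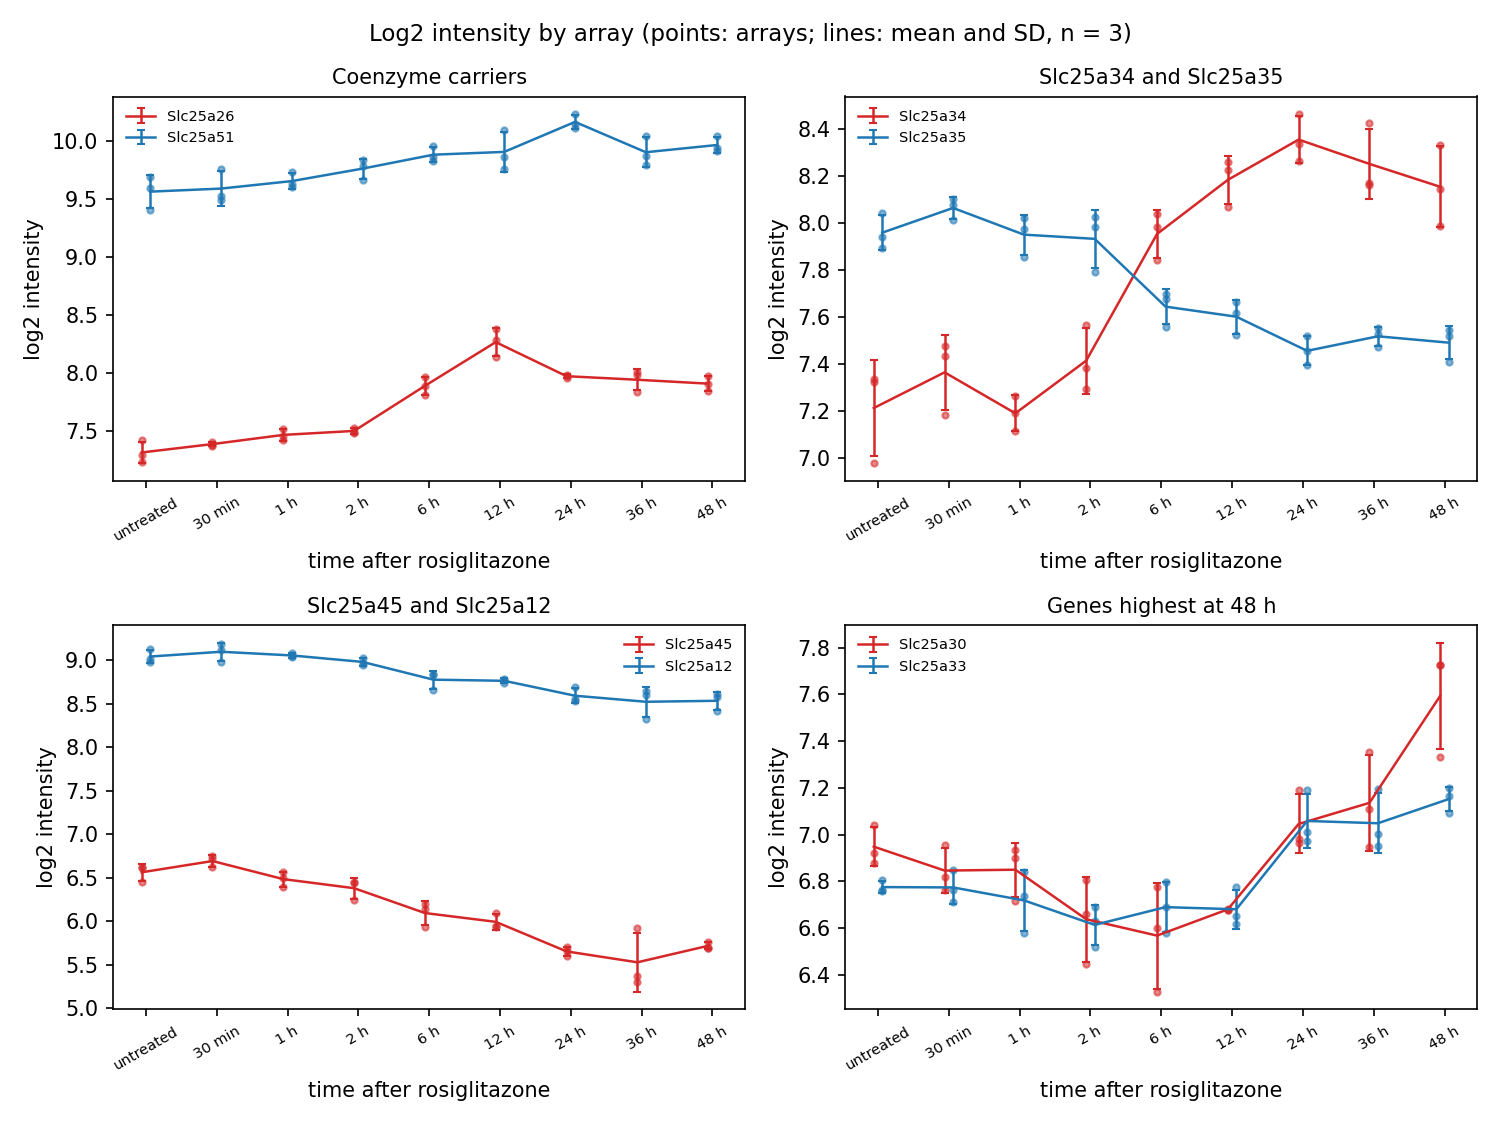
Log2 intensity of leading SLC25 members by time after rosiglitazone, with a point per array and lines through the group means (bars, SD, n = 3). Slc25a34 lies above its untreated arrays from 6 h on and Slc25a26 from 1 h on, and Slc25a45 and Slc25a35 lie below theirs from 6 h on.

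Between treated times the untreated mean plays no part, though the untreated arrays still share in the estimate of the spread. From 2 h to 6 h 3 members rose and 3 fell, where 9.16% of all genes were called (4.27% higher, 4.89% lower). With each array centred, 6 rose and 2 fell, and the share of higher calls over all genes was 71.4% instead of 46.6%. The risers were Slc25a34 (0.54 ± 0.11, adjusted p = 0.00147), Slc25a26 (0.39 ± 0.066, adjusted p = 0.000342) and Slc25a22 (0.34 ± 0.082, adjusted p = 0.00795). The fallers were Slc25a24 (-0.72 ± 0.081, adjusted p = 1.98e-06), Slc25a25 (-0.35, adjusted p = 0.0437) and Slc25a35 (-0.29, adjusted p = 0.00708). The last 2 calls each ended without some single arrays: Slc25a25 without 2 h replicate 2 or 3 or 6 h replicate 1 or 3 (highest adjusted p 0.17), and Slc25a35 without 2 h replicate 1 or 6 h replicate 3 (highest adjusted p 0.0581).

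From 6 h to 24 h 8 members rose and 4 fell, where 11.5% of all genes were called (5.51% higher, 6.02% lower). Slc25a40 rose by 0.60 ± 0.094 (adjusted p = 9e-05), Slc25a30 by 0.48 (adjusted p = 0.00765) and Slc25a33 by 0.37 (adjusted p = 0.00236), while Slc25a25 changed by -0.55 ± 0.11 (adjusted p = 0.00123). The count of 12 rested on few arrays: it was 5 without 24 h replicate 1, and 7 without 6 h replicate 1, 2 or 3. The call of Slc25a30 ended without 6 h replicate 3 (0.36, adjusted p = 0.0704). Smaller changes were those of Slc25a37, Slc25a34 and Slc25a36 (0.40, 0.40 and 0.34), Slc25a51 and Slc25a24 (0.28 and 0.26), and Slc25a47 and Slc25a32 (-0.34 and -0.28). Each of these 7 calls ended without 1 of 2 to 5 single arrays of the times compared (highest adjusted p 0.208). The probe set of Slc25a47 is dim (mean 4.23).

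From 24 h to 48 h 2 members rose and none fell, where 1.46% of all genes were called (0.713% higher, 0.745% lower). At an unadjusted p below 0.05, 5 members were lower. With each array centred, the members' counts were again 2 and 0, and the share of higher calls over all genes was 33.7% instead of 48.9%. They were Slc25a30 (0.55 ± 0.12, adjusted p = 0.0155) and Slc25a23 (0.47 ± 0.11, adjusted p = 0.0197). Both calls ended without 24 h replicate 1 and without 48 h replicate 2 or 3, that of Slc25a30 also without 24 h replicate 2 and that of Slc25a23 without 24 h replicate 3 (highest adjusted p 0.0982 and 0.122). The count was 0 without 24 h replicate 1 or 48 h replicate 2 or 3, 1 without 24 h replicate 2 or 3, and 4 without 48 h replicate 1. From 2 h to 48 h 11 members rose and 6 fell, where 23.7% of all genes were called (12.2% higher, 11.5% lower). They were led by Slc25a30, Slc25a34 (0.74 ± 0.11, adjusted p = 8.17e-06), Slc25a25 (-0.85) and Slc25a45 (-0.66 ± 0.11, adjusted p = 4.82e-05).

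Closely related carriers were set against each other in 9 pairs, chosen with earlier results of these data known. The p-values of the pairs therefore describe these data and are no independent test. Arrays of 24 h, 36 h and 48 h were pooled as if they were replicates of a single condition. For each pair the difference of the 2 log2 values on an array was compared between the 9 arrays of 24 h, 36 h and 48 h and the 3 untreated arrays, by an exact two-sided permutation test whose smallest possible p is 0.00909. The change of Slc25a34 exceeded that of Slc25a35 by 1.51 (1.04 against -0.47, exact p = 0.00909, adjusted over the pairs 0.0205). Slc25a23 exceeded Slc25a24 by 0.90 and Slc25a25 exceeded Slc25a24 by 0.82, each with the same p. Slc25a12 fell further than Slc25a13, by -0.35, again at that p, though the probe set of Slc25a13 is much dimmer (mean 4.79 against 8.82). Slc25a40 exceeded Slc25a39 by 0.42 (exact p = 0.0182, adjusted 0.0327). In the other 4 pairs the test found no difference: Slc25a4 and Slc25a5 (0.03, exact p = 0.582), Slc25a25 and Slc25a23 (-0.08, exact p = 0.627), Slc25a33 and Slc25a36 (0.06, exact p = 0.682), and the mitoferrins Slc25a37 and Slc25a28 (0.03, exact p = 0.864).

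Most genes for the proteins that bring carriers into the inner membrane rose at 6 h. Of 12 measured genes of the TOM and TIM22 route, 11 rose and none fell, where 8.39% of all genes rose and 8.18% fell, and Timm13 was not called (-0.06, adjusted p = 0.815). The median change was 0.41 against -0.008 for all genes. Timm9, a small chaperone of the intermembrane space, was higher by 0.75 ± 0.099 (adjusted p = 5.69e-06), and Tomm70a, the outer membrane receptor for carriers, by 0.65 ± 0.078 (adjusted p = 1.63e-06). Tomm22, a central receptor of the pore complex, was higher by 0.46 (adjusted p = 0.000551) and Agk, a subunit of TIM22, by 0.19 (adjusted p = 0.0496). At 2 h 2 of 12 rose (3.04% of all genes), at 24 h 8 (10.1%) and at 48 h 5 (12.6%), when Timm9 stood at 0.42 (adjusted p = 0.00243). The 2 calls at 2 h were lost without 2 h replicate 3 or untreated replicate 2, and 1 of them without untreated replicate 3. The 5 at 48 h came to 3 without untreated replicate 1 or 48 h replicate 1. The 11 at 6 h also came down with arrays left out, to the range given at the end.

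A list of further transporters and channels was mixed at 48 h, with 7 of 25 measured genes higher and 2 lower, against 12.6% and 11.4% of all genes. The list includes Slc25a1, Slc25a17 and Slc25a20, left out by the selection rule, so it is not a set of genes outside the carrier family. Slc25a20, the carnitine carrier, was higher by 0.81 ± 0.11 (adjusted p = 2.8e-06) and the uncoupling protein homologue Ucp3 by 0.65 ± 0.10 (adjusted p = 2.08e-05). The sideroflexins Sfxn2 and Sfxn3, of a separate family of carriers, changed by -0.86 ± 0.080 (adjusted p = 1.19e-08) and -0.45 ± 0.076 (adjusted p = 6.55e-05). At 2 h 2 of the 25 rose (3.04% of all genes), 1 of them Ucp3, and 1 remained called without 2 h replicate 1 or 3 or untreated replicate 1 or 3. Of 15 measured enzymes that use what the carriers deliver, 0 were called at 2 h (0 at an unadjusted p below 0.05), where 5.91% of all genes were called. At 48 h 2 rose and 3 fell, where 24.0% of all genes were called (12.6% higher, 11.4% lower), or 3 enzymes in all without untreated replicate 1 or 48 h replicate 1. Got1, the cytosolic transaminase of the malate-aspartate shuttle, was higher by 0.58 ± 0.079 (adjusted p = 4e-06). Glud1, glutamate dehydrogenase, changed by -0.42 ± 0.057 (adjusted p = 3.92e-06), Bcat2, the mitochondrial branched-chain transaminase, by -0.26 (adjusted p = 0.00457) and Oat, ornithine aminotransferase, by -0.20 (adjusted p = 0.0128).

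Markers of fat cells and of other cells were also counted at 48 h. Of 7 measured preadipocyte and fibroblast markers, 5 fell at 48 h, where 11.4% of all genes fell and 12.6% rose. The log2 of the summed intensity of the 7 went from between 12.96 and 13.08 untreated to between 12.61 and 12.67 at 48 h. Cd34 stood at 3.04 untreated. Of the 8 adipocyte markers 2 fell and none rose (summed level 14.49 to 14.54 untreated, 14.39 to 14.52 at 48 h). For the 6 macrophage markers the summed level was 6.47 to 6.70 untreated and 6.42 to 6.49 at 48 h, with Adgre1 at 2.68 untreated, and 1 fell. For the 4 skeletal muscle markers it was 5.88 to 6.08 untreated and 5.64 to 5.98 at 48 h, with Myod1 at 2.99 untreated, and 1 fell. The part of these markers in the changes of Slc25a24, Slc25a45 and the other late members was not tested.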

How the data were processed

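Total RNA of 27 arrays in 9 labelled groups of 3 was compared. The authors deposited a log2 intensity for each probe set. The submitters' processing notes name Partek and RMA; roles and versions are not given in the sources used here. Of 28815 probe sets, 21153 carried 1 symbol, 1867 several and 5795 none; 21123 matched RefSeq, and 0 symbols changed. No dim gene was removed, and 0 pairs of arrays were identical.

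The model had a mean per group and no covariate (limma 3.58.1, R 4.3.3), over 18781 genes with Benjamini-Hochberg adjustment; tests were two-sided. Tables used Python 3.11.15, pandas 2.3.3, numpy 2.4.6 and scipy 1.17.1, plots matplotlib 3.10.9. The fit was tested on simulated data. Members and lists were chosen with earlier results of these data known. Named were up to 6 called members per direction and comparison, up to 4 per role by F-test p, and a panel of 9; array values were given for the 12 with the smallest F-test p and a few chosen after their values were seen (Slc25a23, Slc25a37, Slc25a51). Lists named up to 4 genes by p at 48 h. Alternatives were 12 settings and, added after the results were seen, each of 27 arrays left out. The number of arrays limits the precision.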

Additional observations from a re-analysis of the deposited data

Results flagged for a closer look

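The change against untreated cells at 48 h differed from that at 2 h in 17 of 43 members by limma's test of 48 h against 2 h, which is the test of the difference itself, with 3 arrays at each time, where 23.7% of all genes were called (12.2% higher, 11.5% lower). Higher at 48 h were Slc25a30 by 0.96 (adjusted p = 9.16e-07), Slc25a34 by 0.74 (adjusted p = 8.17e-06), Slc25a37 by 0.54 (adjusted p = 0.000866) and Slc25a33 by 0.54 (adjusted p = 1.09e-05). The glutathione importer and the ATP-Mg/phosphate carrier of the late set followed, Slc25a40 by 0.45 (adjusted p = 0.000788) and Slc25a23 by 0.43 (adjusted p = 0.00385), with Slc25a26 by 0.41 (adjusted p = 4.08e-05) and Slc25a36 by 0.36 (adjusted p = 0.0183). Smaller increases were those of Slc25a27 by 0.32 (adjusted p = 0.0374), Slc25a48 by 0.29 (adjusted p = 0.011) and Slc25a22 by 0.27 (adjusted p = 0.0168). The probe sets of Slc25a27 and Slc25a48 are dim, with means of 4.24 and 3.14 over the arrays. Lower at 48 h were Slc25a25 by -0.85 (adjusted p = 1.8e-06), Slc25a45 by -0.66 (adjusted p = 4.82e-05) and Slc25a24 by -0.50 (adjusted p = 3.59e-05). The other lower members were Slc25a12 by -0.45 (adjusted p = 0.000106), Slc25a35 by -0.44 (adjusted p = 2.18e-05) and Slc25a38 by -0.37 (adjusted p = 0.00437). The calls of Slc25a22, Slc25a27, Slc25a36 and Slc25a48 each ended without single arrays (highest adjusted p 0.0742, 0.246, 0.0863 and 0.0812).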

How the results depend on the processing

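Of 118 called member changes, 54 kept their call in all alternatives they could be run in, and 0 reversed. Calls ended in 27, 45 and 47 of the 118 without replicate 1, 2 or 3 of every group. Arrays of the same replicate number did not deviate together: of 108 same-number pairs, 3 correlated above 0.1, and 0 arrays correlated best with their own number. The mean was -0.12, against 0.061 between other numbers. Deviations from a group mean sum to 0 within the group, so these means are not independent of each other. Pairing under another numbering was not tested. The replicate block ended 12 of 118 calls, as did models of only the 6 arrays compared, and it left 1 of 2 other transporters at 2 h.

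Some counts of called SLC25 members differed from the reported count by a factor of over 1.5. The count at 1 h was 2 with the 30 min arrays as the baseline (1 as reported). From 24 h to 48 h it was 4 with array weights (2 as reported) and 0 with only the 6 arrays. At 30 min it was 0 with only the 6 arrays. Leaving arrays out gave 0 to 1 members at 30 min, 1 to 4 at 2 h, 7 to 14 at 6 h, 2 to 7 from 2 h to 6 h, 2 to 9 from 6 h to 24 h, 0 to 4 from 24 h to 48 h, and 11 to 18 from 2 h to 48 h. The import genes called were 4 at 2 h with array weights, and 3 at 48 h with the 30 min baseline or only 6 arrays; leaving arrays out gave 0 to 2 at 2 h, 6 to 9 at 6 h and 3 to 5 at 48 h. The enzymes called at 48 h were 3 with only 6 arrays and 3 to 5 with arrays left out. The other transporters called at 2 h were 1 with the 30 min baseline or only 6 arrays, and 1 to 2 with arrays left out. The cause of these shifts was not tested. Runs with arrays left out or with only 6 arrays also had fewer arrays, while array weights and the 30 min baseline kept all of them.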
